A study of Mus musculus with 12 samples.

Results

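The comparison set all 3 postnatal stages together against the fetal lung. Mouse lung cells that were positive for both Acta2-dsRed and Pdgfra-GFP were sorted from dissociated whole lung and profiled by bulk RNA sequencing, at E17.5, before birth, and at postnatal days 3, 7 and 10 (P3, P7 and P10). The comparison used 12 of the 12 libraries, 3 at each of the 4 stages: 9 postnatal and 3 fetal. Every library carried the same genotype, Acta2-dsRed+ and Pdgfra-GFP+, with no treatment named, so the groups differed by age. The labels do not say whether a library came from 1 animal or from pooled animals, nor whether replicate libraries were separate animals. P-values therefore measure only the spread between these libraries, part or all of which can be technical. The labels give no sort or library date, so age and day of collection cannot be told apart. The question was which genes are switched on or off across birth and then stay there.

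The members were genes. A single model with a term for each of the 4 stages was fitted to 16827 tested genes of 28004, and the mean of the 3 postnatal stages was contrasted with E17.5. A gene passed at an adjusted p under 0.05, and it was called separated where all 9 postnatal libraries lay on one side of all 3 fetal ones. Levels are CPM, estimated counts scaled to the size of the library. CPM itself adds no correction for gene length, but the deposited counts look length-scaled already. Levels are compared only within a gene or within the sum of a marker list. The strand setting of the counting is not given in the sources used here, so reads of Bmp6, Mest, Igf2bp3, Fen1, Crim1, Thbs3, Igf2r, Ecm2, Chad, Mmp19, Fgf1, Hoxa6, Plvap and S100b, which overlap an expressed gene on the other strand, cannot be told apart from that gene's. In bulk samples fewer cells of a type and less RNA per cell cannot be told apart.

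At E17.5 the mouse lung is near the start of the saccular stage, when airspaces widen between thick walls, and the fetus lives on placental oxygen. After birth, secondary crests grow into the airspaces and divide them into alveoli. Cells with both reporters include the myofibroblasts at the tips of those crests, which lay down elastin and contract, and which are largely lost once alveoli have formed. The Hippo pathway, named in the series title, restrains the coactivators YAP and TAZ, which act with TEAD factors on genes of growth, matrix and contraction.

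The sequences that frame the result are the microRNAs carried inside genes that were separated. Among the separated genes that passed, 54 lower and 41 higher after birth hold a microRNA hairpin on their own strand. Hosts on a chromosome not reported here were left out of these counts. Over all tested genes there were 502 pairs of a hairpin and a gene on the same strand, that chromosome included. Pairs are not genes, so 502 is no background for the host counts. The share of all tested genes that are hosts was not worked out, so whether the counts hold an excess is not known. The fetal growth transcripts H19, Igf2, Igf2bp1 and Mest were the hosts lower after birth chosen for printing, and the replication gene Mcm7 was the host higher after birth. Mature microRNAs, read 5′ to 3′ from RefSeq with positions on GRCm38.p6, are given with the seed, bases 2 to 8, in capitals.
miR-675-5p, in H19, chr7:142577112-142577133, minus strand: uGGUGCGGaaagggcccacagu
miR-675-3p, in H19, chr7:142577078-142577099, minus strand: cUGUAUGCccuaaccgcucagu
miR-483-3p, in Igf2, chr7:142654932-142654952, minus strand: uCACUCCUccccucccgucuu
miR-3063-5p, in Igf2bp1, chr11:95963347-95963367, minus strand: uGGAGAUCagguuugcacacu
miR-335-5p, in Mest, chr6:30741314-30741336, plus strand: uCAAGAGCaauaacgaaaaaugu
miR-106b-5p, in Mcm7, chr5:138165787-138165807, minus strand: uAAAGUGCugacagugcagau
miR-93-5p, in Mcm7, chr5:138165574-138165596, minus strand: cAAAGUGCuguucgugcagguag
The seed AAAGUGC is shared by miR-106b-5p and miR-93-5p, which lie in the same host, and the other 5 printed seeds differ from it and from each other. Levels of the mature microRNAs were not analysed here. Only the host transcripts were measured.

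Promoters were read for the genes with the widest gaps between the groups, and 3 are printed as examples: Prokr2 and Aspn, high after birth, and Hif3a, high before it. Prokr2 and Hif3a had the widest gap of their direction, and Aspn did not. Each window runs from 250 bases before to 50 bases after the RefSeq start, on GRCm38.p6 and in the direction of the gene, with motif letters in capitals.
Prokr2, chr2:132385398-132385697, minus strand: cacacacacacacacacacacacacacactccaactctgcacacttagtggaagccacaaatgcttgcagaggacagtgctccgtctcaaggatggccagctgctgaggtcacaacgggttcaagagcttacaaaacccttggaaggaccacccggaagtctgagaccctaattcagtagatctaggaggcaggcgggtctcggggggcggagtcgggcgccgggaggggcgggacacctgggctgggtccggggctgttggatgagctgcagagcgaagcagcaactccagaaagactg
Aspn, chr13:49544193-49544492, plus strand: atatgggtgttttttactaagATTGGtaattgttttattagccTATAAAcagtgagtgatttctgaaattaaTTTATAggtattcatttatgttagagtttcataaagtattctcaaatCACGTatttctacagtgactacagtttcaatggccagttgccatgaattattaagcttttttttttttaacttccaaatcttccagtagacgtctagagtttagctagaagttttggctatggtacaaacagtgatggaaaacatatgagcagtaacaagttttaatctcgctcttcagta
Hif3a, chr7:17062378-17062677, minus strand: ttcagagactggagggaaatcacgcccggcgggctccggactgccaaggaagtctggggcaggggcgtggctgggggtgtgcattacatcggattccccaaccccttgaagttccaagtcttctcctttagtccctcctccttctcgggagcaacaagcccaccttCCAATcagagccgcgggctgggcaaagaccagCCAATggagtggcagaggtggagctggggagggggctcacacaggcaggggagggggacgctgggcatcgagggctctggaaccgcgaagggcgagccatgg
The window of Prokr2 held none of the 7 motifs searched. That of Aspn held a CCAAT box, 2 TATA boxes and a hypoxia response core, and that of Hif3a held 2 CCAAT boxes. The motifs were searched as letters on both strands, and the hypoxia core ACGTG can overlap itself on the other strand. Promoters were matched for 10196 tested genes (13029 windows), 887 of the separated genes higher after birth (1126 windows) and 956 of those lower (1277 windows). The TEAD motif GGAATG stood in 12.5% of all windows, 13.7% of those of higher genes and 13.9% of those of lower genes. For the cell cycle homology letters TTTGAA the shares were 12%, 11.4% and 11.2% in the same order. For CCAAT they were 37.3%, 35.7% and 39.9%, for the E2F letters TTCCCGC 8.01%, 8.44% and 6.73%, and for TATAAA 7.17%, 8.53% and 6.58%. For AGAACA, part of the glucocorticoid receptor site, they were 12.4%, 9.59% and 12%, and for ACGTG 24.9%, 25% and 25.6%. These shares are descriptions with no test, and a match is not a site.

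The libraries held between 13328623 and 18740591 estimated counts each and 20234 to 21235 genes above 0. Structural small RNAs (such as 7SL and 7SK) took between 32.44% of the total, in P10 replicate 3, and 70.06%, in E17.5 replicate 2. Scaling factors by the trimmed mean of M-values (TMM) ran from 0.589 in that fetal library to 1.478 in that P10 library. Spearman correlations over genes lay between 0.938 and 0.961 within a stage, between 0.899 and 0.954 between postnatal stages, and between 0.872 and 0.923 between E17.5 and postnatal libraries. E17.5 replicate 1 stood apart from the other fetal libraries in several cell type lists. Alveolar fibroblast and lipofibroblast markers summed to 5054 CPM in E17.5 replicate 1, against 1533 and 1254 in the other 2 fetal libraries and 387.7 to 1523 after birth, so results that touch those genes are also given without it.

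The genes that the 2 reporters are named for differed in their course. Pdgfra, a platelet-derived growth factor receptor, was at 268, 409 and 361 CPM at E17.5 and between 165 and 249 after birth. It passed as lower, with a log2 fold change of -0.82 (adjusted p = 0.00196, SE 0.14), and its course after birth was level. Acta2, smooth muscle actin, was at 347, 432 and 696 CPM at E17.5 and between 364 and 1075 after birth, with stage means (± SD, n = 3) of 1025 ± 46.4 at P3, 822 ± 131 at P7 and 487 ± 166 at P10. Its groups overlapped and it did not pass (log2 fold change 0.59 (adjusted p = 0.0802, SE 0.23)). It passed with DESeq2 (adjusted p = 0.0407), with limma-voom (adjusted p = 0.0491), among genes that reach 10 CPM in a stage (adjusted p = 0.0448), without E17.5 replicate 3 (adjusted p = 0.0145) and with P10 left out of the postnatal mean (adjusted p = 0.0144), each time as higher.

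Of the tested genes, 4851 passed, 28.8% of all. Of these, 2341 (13.9% of all tested) were higher and 2510 (14.9%) lower after birth. The list counts given below are to be read beside these shares. The 9 postnatal libraries all lay above the 3 fetal ones for 1321 genes (7.85%) and all below for 1407 (8.36%). Both conditions held for 1250 genes higher after birth (7.43%) and 1327 lower (7.89%), 2577 in all. The other 2274 genes that passed overlapped in at least 1 pair of libraries, and 151 separated genes did not pass. The median log2 fold change of all tested genes was -0.02. With upper-quartile scaling 55.6% of the calls were higher after birth, against 48.3% here.

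Most of the 2577 changes were modest. The median absolute log2 fold change was 1.002 in the 1250 higher genes and 0.97 in the 1327 lower genes. At least a 4-fold change was seen for 261 higher and 283 lower genes, and at least 16-fold for 45 and 47. The gap between the nearest 2 libraries of the groups was at least 1 log2 unit, after adding 0.5 CPM, for 116 higher and 143 lower genes. It was at least 2 units for 25 and 31. By annotation 1131 of the higher and 1198 of the lower genes were protein coding, of 12416 tested, and 17 of each were long intergenic RNAs, of 301 tested.

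**Figure D1:**
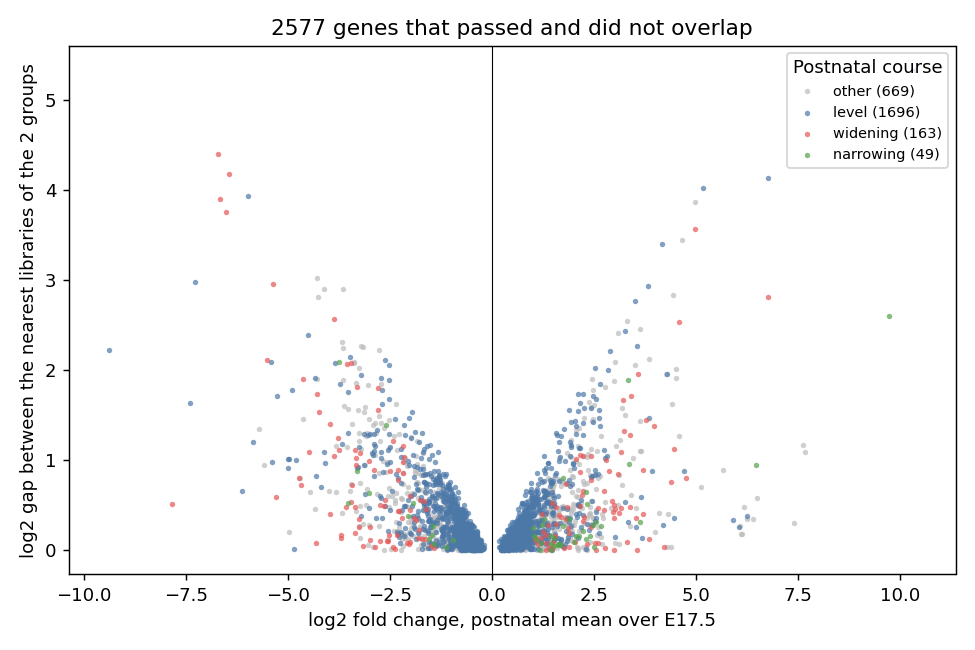
Each point is 1 of the 2577 genes that passed and whose 9 postnatal libraries did not overlap the 3 of E17.5. The horizontal axis is the log2 fold change of the postnatal mean over E17.5 and the vertical axis the log2 gap between the nearest libraries of the groups, with 0.5 CPM added; colours give the course after birth. Most points sit below a gap of 1, and level genes reach gaps above 4 on the side higher after birth.

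The separated genes were sorted by their course after birth. A course was called level where the means of P3, P7 and P10 spanned at most 0.5 log2 units. Level genes numbered 780 of the 1250 higher (62.4%) and 916 of the 1327 lower (69%). Of the 575 higher and 623 lower genes that also passed a test against a minimum fold of 1.5, 37.9% and 50.1% were level. A gene was called widening where P10 lay at least 1 log2 unit farther from E17.5 than P3 did, which held for 81 higher and 82 lower genes, and narrowing where P10 lay at least 1 unit nearer, which held for 36 and 13. The other 353 and 316 genes spanned more than 0.5 log2 units, with less than 1 unit between P3 and P10. Tested among P3, P7 and P10 alone, 12% of all genes passed, and 403 of the 2577 did (15.6%). A level course is a description by span and does not show that the stages are equal.

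The strictest switch, under 1 CPM in every library of one side and at least 5 CPM in every library of the other, was met by 2 genes in each direction. Prokr2, a receptor for prokineticins (chromosome 2, 132337733 to 132385447, minus strand), was at 0.06796, 0.0973 and 0 CPM at E17.5 and at 23.5, 62.9 and 119 CPM after birth (lowest, median, highest). The fetal libraries were close to 0 and all 9 postnatal libraries far above them. It passed with an adjusted p of 4.67e-05, but not with limma-voom (adjusted p = 0.239), and no fold is given because the fetal values rest on at most 1 estimated count a library. Lrrc15, a leucine-rich repeat membrane protein known from activated myofibroblasts (chromosome 16, 30269302 to 30283256, minus strand), stood at 0.06796, 0.0973 and 0.365 CPM and then at 14.7, 22.9 and 33.2 CPM. Its log2 fold change was 6.78 (adjusted p = 6.84e-06, SE 0.48), and its stage means after birth spanned 0.40 log2 units. The genes that went off were Cyp1b1, a cytochrome P450 that oxidizes oestrogens and retinoids (chromosome 17, 79701537 to 79715061, minus strand), and Crh, corticotropin-releasing hormone (chromosome 3, 19693401 to 19695396, minus strand). Cyp1b1 was at 20.6, 36.9 and 29.1 CPM at E17.5 and at 0.263, 0.405 and 0.887 CPM after birth, a log2 fold change of -5.98 (adjusted p = 2.62e-07, SE 0.26). Crh stood at 8.02, 19.5 and 62.3 CPM and then at 0, 0.203 and 0.582 CPM, a log2 fold change of -7.26 (adjusted p = 5.19e-05, SE 0.67), and its fetal libraries were spread more widely than those of Cyp1b1. How many genes meet this switch depends on its limits: 8 were on with 0.5 and 2 CPM in place of 1 and 5.

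Ntn1, the guidance ligand netrin-1, had the widest gap after those among genes that rose. It was at 0.951, 1.75 and 1.15 CPM at E17.5 and at 35.9, 40.6 and 58.4 CPM after birth, a log2 fold change of 5.17 (adjusted p = 1.09e-06, SE 0.29), and its stage means spanned 0.14 log2 units. Enpp1, which makes pyrophosphate and so restrains mineral deposition, stood at 1.16, 0.973 and 1.51 CPM and then 28.8, 40.9 and 56.2 CPM, a log2 fold change of 4.99 (adjusted p = 1.61e-07, SE 0.16). Aspn, the small leucine-rich proteoglycan asporin and a marker of crest myofibroblasts, stood at 14.5, 4.67 and 6.99 CPM and then 176, 251 and 466 CPM, a log2 fold change of 4.98 (adjusted p = 7.67e-06, SE 0.36). It widened after birth, while Ntn1 did not. Crip1, a small LIM protein, stood at 13.2, 8.47 and 17.1 CPM and then 185, 217 and 285 CPM. Ccnd1, cyclin D1, stood at 2.11, 1.36 and 1.93 CPM and then 19.4, 26.9 and 31.8 CPM. Both held a level course, at log2 fold changes of 4.17 (adjusted p = 2.01e-06, SE 0.26) and 3.84 (adjusted p = 7.85e-07, SE 0.20).

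Cd34, a sialomucin of vessel and stromal progenitor cells, stood at 19.98, 20.7 and 32.02 CPM and then 220.4, 287 and 333 CPM, a log2 fold change of 3.52 (adjusted p = 1.02e-06, SE 0.19) with a level course. Ackr3, the scavenging receptor for the chemokine CXCL12, stood at 1.16, 0.779 and 0.887 CPM and then 11.3, 21.2 and 33.8 CPM. The remaining genes with the widest gaps were the serine protease homologue Prss35, the stress protein gene Fam129a and Sod3, the extracellular superoxide dismutase. Their log2 fold changes were 4.66, 3.32 and 4.59. Sod3 alone of these 3 widened, from a mean of 12.3 CPM at P3 to 53.6 at P10. Pappa2, a protease of insulin-like growth factor (IGF) binding proteins, and the matrix protein gene Thbs3 completed the level genes with the largest rises, at 3.55 and 3.27. These genes were picked for their gaps or sizes, so large values in them follow from the choice.

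**Figure D2:**
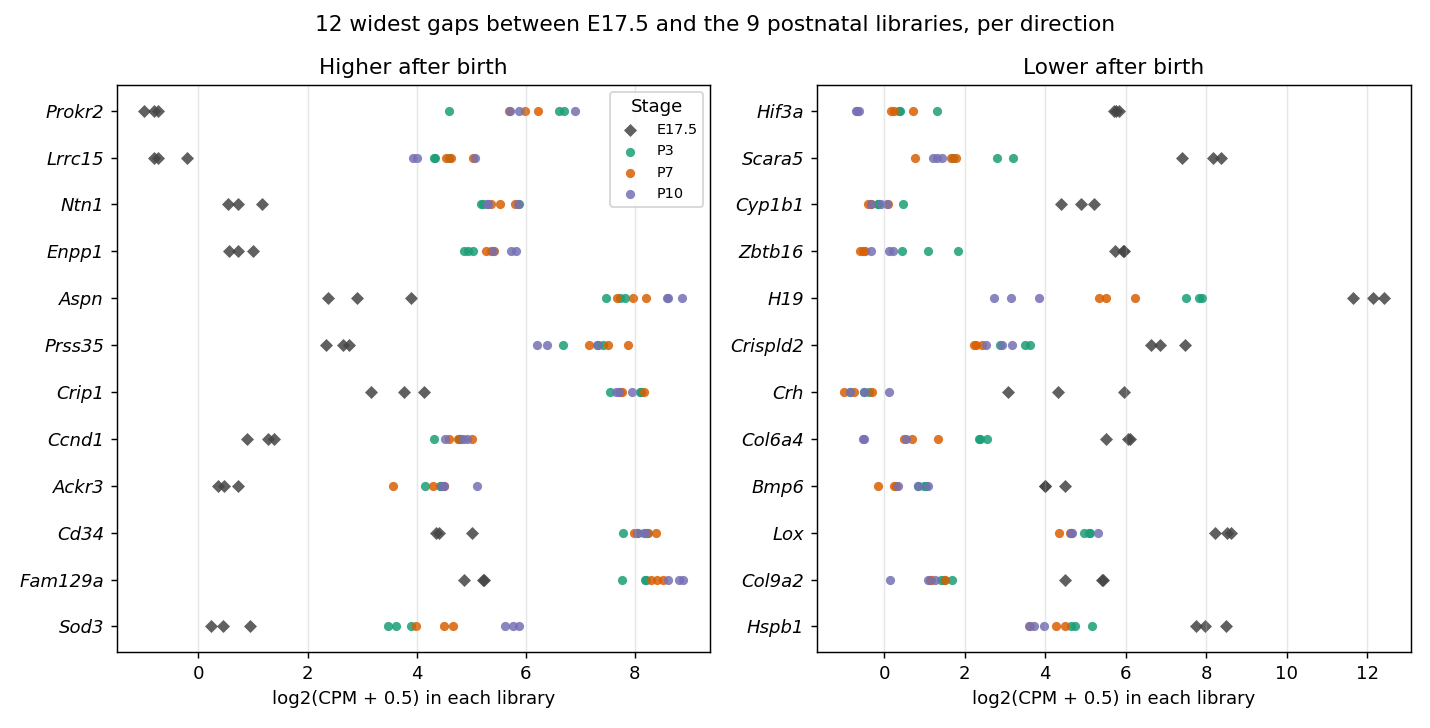
Each point is 1 library, placed at log2(CPM + 0.5), for the 12 genes per direction with the widest gap between E17.5 (diamonds) and the 9 postnatal libraries (circles, coloured by stage). On the left every diamond lies below every circle, and on the right above; H19 falls further at each postnatal stage, while Ntn1 stays between 35.9 and 58.4 CPM.

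The widest gaps among genes that fell were led by Hif3a, a hypoxia-inducible factor subunit that is also induced by glucocorticoid. It was at 51.6, 56.3 and 53.98 CPM at E17.5 and at 0.119, 0.684 and 1.98 CPM after birth, a log2 fold change of -6.70 (adjusted p = 1.61e-07, SE 0.23). The fetal libraries were close together and every postnatal library lay far below them. Scara5, a ferritin scavenger receptor also used as a marker of adventitial fibroblasts, stood at 168, 333 and 290.3 CPM and then 1.21, 2.64 and 8.78 CPM, a log2 fold change of -6.45 (adjusted p = 8.4e-07, SE 0.32). Of 13 tested adventitial fibroblast markers, 2 passed as higher, Cd34 among them, and 2 as lower, with a median log2 fold change of 0.785. The lower count was 1 without E17.5 replicate 1, and both counts were 1 without replicate 2. Zbtb16, a zinc finger repressor induced by glucocorticoid, stood at 60.2, 62.3 and 52.6 CPM and then 0.158, 0.582 and 3.07 CPM, a log2 fold change of -6.66 (adjusted p = 1.93e-07, SE 0.27). Hif3a and Zbtb16 both fell further after P3 and passed among the postnatal stages. Crispld2, a secreted protein of lung mesenchyme also known to respond to glucocorticoid, stood at 98.8, 178 and 116 CPM and then 4.24, 6.84 and 11.8 CPM.

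Lox, the lysyl oxidase that crosslinks elastin and collagen, was at 393, 298 and 366 CPM at E17.5 and at 19.8, 24.8 and 39.5 CPM after birth, a log2 fold change of -3.65 (adjusted p = 1.72e-07, SE 0.14). Col6a4 and Col9a2, minor collagen chains, had log2 fold changes of -5.37 and -4.26. Bmp6, a bone morphogenetic protein, stood at 15.6, 22.1 and 15.4 CPM and then 0.399, 1.28 and 1.63 CPM. The small heat shock protein gene Hspb1 stood at 214, 363 and 249 CPM and then 11.6, 18.9 and 35.7 CPM. The level genes with the largest falls were Lamc3, a laminin chain (-3.85), Xdh, xanthine dehydrogenase (-3.52), the tight junction gene Cldn1 (-3.48), Greb1 (-3.20), the secreted factor gene Ndnf (-2.82) and Abat, which breaks down the transmitter GABA (-2.71), all log2 fold changes. Cspg4, the NG2 proteoglycan of pericytes, was level after birth: 29.6, 39.1 and 26.4 CPM at E17.5 and 4.56, 4.93 and 5.76 CPM after birth, with stage means that spanned 0.10 log2 units.

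**Figure D3:**
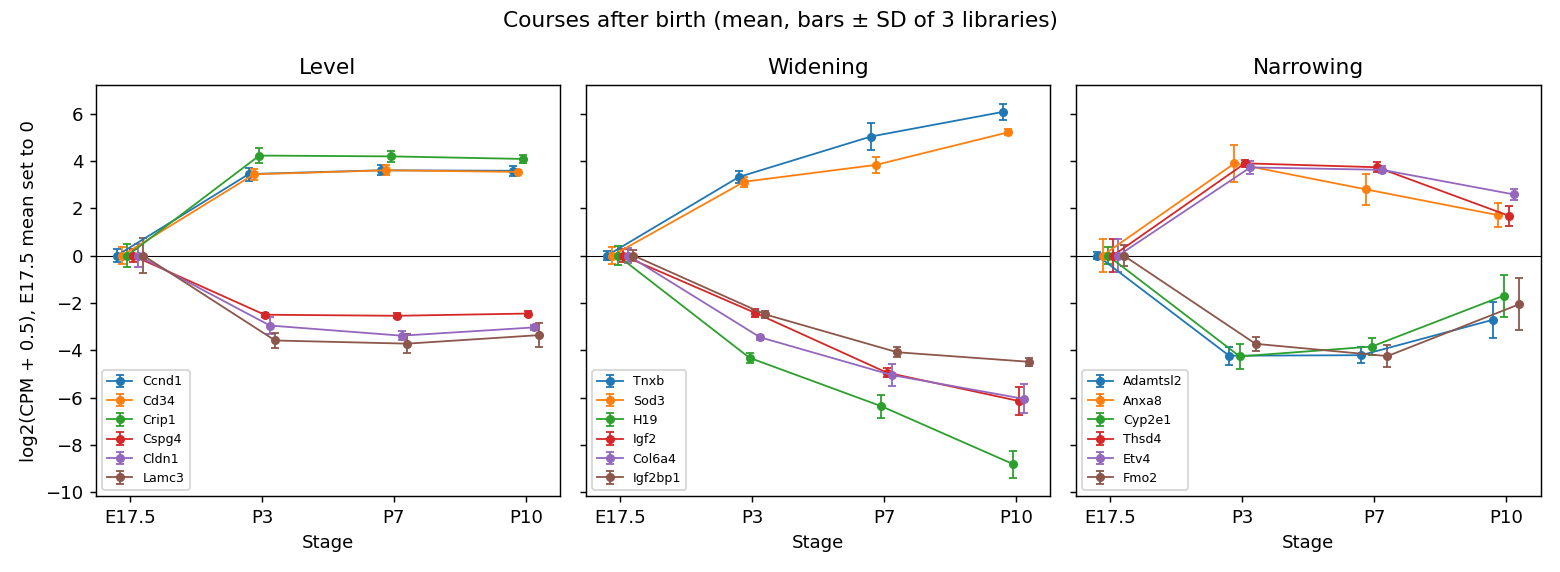
Mean log2(CPM + 0.5) at each stage, set to 0 at E17.5, with bars of ± SD of 3 libraries, for 6 genes of each course. The level and widening genes were chosen as examples after their values were seen; the narrowing genes are those with the largest absolute change that reached 10 CPM in a stage, without predicted models and without Srp54a, which has close copies. Ccnd1, Cd34 and Crip1 step up once and stay; H19 and Igf2 keep falling; Adamtsl2 and Cyp2e1 start to return towards E17.5 at P10.

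Narrowing genes crossed birth and then moved back. Adamtsl2, an extracellular microfibril-binding protein, had means of 6.88 ± 1.88 CPM at P3, 6.95 ± 1.78 at P7 and 21.9 ± 9.62 at P10, against 136, 151 and 119.8 CPM in the fetal libraries. Fmo2, a flavin monooxygenase of the lung, had 41.5 ± 8.72, 29.4 ± 8.96 and 154 ± 86.7 CPM, against 607, 709 and 385. Both passed among the postnatal stages, with adjusted p of 0.0143 and 0.0169. In the other direction Etv4, a transcription factor of fibroblast growth factor (FGF) signalling, had means of 53.6 ± 10.02, 49.5 ± 5.05 and 23.9 ± 3.95 CPM, against 4.35, 1.85 and 5.32 at E17.5. That these genes did not overlap the fetal range at P10 follows from the choice of separated genes. Genes that moved back into the fetal range were left out by that rule.

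Cell cycle genes were higher after birth. All 26 tested DNA replication genes passed as higher after birth (100%, against 13.9% of all tested genes), with a median log2 fold change of 1.38, and 21 of 23 mitosis genes did (91.3%), with a median of 1.41. Only 6 of the replication genes, and none of the mitosis genes, had all 9 postnatal libraries above the fetal ones, and none of either list was level. With P10 left out of the contrast 26 replication and 22 mitosis genes were separated, and without E17.5 replicate 3 the counts were 9 and 4. Rrm2, a subunit of ribonucleotide reductase, was at 6.59, 4.18 and 5.06 CPM at E17.5 and at 7.25, 38.5 and 48.98 CPM after birth. Its means were 45.9 ± 4.76 CPM at P3, 38.1 ± 1.41 at P7 and 10.7 ± 5.27 at P10. Pole, the leading-strand polymerase, ran from 15.7 ± 2.04 CPM at P3 to 5.14 ± 1.51 at P10, against 1.495, 1.36 and 3.08 in the fetal libraries. The flap endonuclease gene Fen1 and the polymerase genes Pola1 and Pold1 had log2 fold changes of 1.45, 1.58 and 1.48. Mcm7, of the replicative helicase and host of the printed miR-106b and miR-93, rose by 0.83. With the postnatal libraries pooled as 1 group of 9, 16 replication and 10 mitosis genes passed.

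Imprinted and fetal growth genes were mostly lower after birth. Of 20 tested, 14 passed as lower (background 14.9%), all 14 were separated, and 1 passed as higher. The median log2 fold change was -1.37, and only 3 of the 14 were level. In 13 of the 14 the mean was lower at P7 than at P3 and lower again at P10. H19, an imprinted noncoding RNA and host of miR-675, was at 3215, 5435 and 4509 CPM at E17.5 and at 6.15, 45.02 and 239 CPM after birth, a log2 fold change of -6.52 (adjusted p = 1.72e-07, SE 0.26). Its means fell from 215 ± 29.7 CPM at P3 to 53.4 ± 19.2 at P7 and 9.49 ± 3.98 at P10. Its neighbour Igf2, the fetal insulin-like growth factor and host of miR-483, stood at 154, 219 and 217 CPM and then 1.23, 5.83 and 40.7 CPM, a log2 fold change of -4.62 (adjusted p = 2.17e-07, SE 0.19). Dlk1, a transmembrane inhibitor of differentiation, stood at 114, 53.6 and 51.8 CPM and then 0.61005, 5.39 and 15.2 CPM. Zim1 and Mest had log2 fold changes of -2.80 and -2.54. Without any one fetal library 14 or 15 of the list passed as lower, and the 1 higher call was lost, as it was without any one of 6 of the 9 postnatal libraries (all but P3 replicate 3 and P10 replicates 1 and 2).

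The RNA-binding proteins that hold fetal growth transcripts fell with them. Igf2bp1 was at 13.4, 9.63 and 11.996 CPM at E17.5 and at 0, 0.263 and 1.84 CPM after birth, a log2 fold change of -5.51 (adjusted p = 3.13e-06, SE 0.36), and Igf2bp2 and Igf2bp3 had -3.43 and -3.01. All 3 were separated and widened. Of 5 tested oncofetal genes, 4 passed as lower and 1, Arid3b, as higher (1.47). The Arid3b call was lost without E17.5 replicate 2 (adjusted p = 0.0645) or replicate 3 (0.0611). In the IGF system, of 11 tested, 3 passed as higher and 4 as lower. The growth factor gene Igf1 stood at 307, 514 and 666 CPM and then 121, 168 and 231 CPM, level after birth, with a log2 fold change of -1.58 (adjusted p = 0.000666, SE 0.23). The clearance receptor gene Igf2r had -1.28, and -0.65 without E17.5 replicate 1. Igfbp5, a binding protein kept in the matrix, rose from 17.8, 38.4 and 13.7 CPM to 51.2, 240.5 and 499 CPM, with means of 77.1 ± 23.6 at P3 and 441 ± 74.3 at P10.

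Genes induced by glucocorticoid were mostly lower after birth. Of 20 tested, 14 passed as lower, 9 of them separated, and 1 as higher, with a median log2 fold change of -1.36. Fkbp5, a chaperone of the glucocorticoid receptor and a sensitive readout of its activity, was at 88.5, 90.6 and 81.8 CPM at E17.5 and at 2.91, 7.77 and 19.2 CPM after birth, a log2 fold change of -3.55 (adjusted p = 1.72e-07, SE 0.14). Its means fell from 14.9 ± 3.87 at P3 to 3.46 ± 0.676 at P10. Hsd11b1, which regenerates active glucocorticoid, stood at 166, 37.7 and 26.4 CPM and then 0.449, 2.26 and 15.8 CPM, a log2 fold change of -4.68 (adjusted p = 0.000371, SE 0.57). Its highest fetal value was that of replicate 1, and without that library the log2 fold change was -3.42. Errfi1, a feedback inhibitor of epidermal growth factor receptor, had -2.51. The receptor gene itself, Nr3c1, was separated on the side lower after birth, at 115, 117 and 142 CPM and then 52.8, 64.3 and 86.7 CPM.

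Genes of hypoxia and glycolysis were also lower. Of 24 tested, 13 passed as lower, 11 of them separated and 7 of those level, and 2 passed as higher (1 without E17.5 replicate 2); the median log2 fold change was -0.58. Bnip3, a mitophagy receptor induced by hypoxia, was at 164, 198 and 142 CPM at E17.5 and at 24.1, 29.9 and 33.8 CPM after birth, a log2 fold change of -2.52 (adjusted p = 1.72e-07, SE 0.09) with a level course. Slc2a1, the glucose transporter GLUT1, stood at 27.9, 24.2 and 14.2 CPM and then 1.64, 2.63 and 5.61 CPM, a log2 fold change of -3.07 (adjusted p = 1.24e-05, SE 0.24). Hexokinase 2 (Hk2), Ndrg1 and the kinase gene Pdk1, which limits pyruvate entry into mitochondria, had -3.36, -2.33 and -2.30. Hk2 and Slc2a1 were lower in E17.5 replicate 3 than in the other fetal libraries. Of 35 oxidative phosphorylation genes 9 passed as higher and 2 as lower (31.4%, near the 28.8% of all tested genes). Only 3 passed as higher without E17.5 replicate 1 and likewise without replicate 2. Leaving out any one of P7 replicates 1 and 3 and P3 replicates 2 and 3 gave 5 higher, and leaving out E17.5 replicate 2 or 3 gave 1 lower. The list held 1 separated gene in each direction, Ndufv2 and Ndufa6.

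Elastic fibre genes split. Of 20 tested, 6 passed as higher and 8 as lower, and 12 of these were separated, 5 higher and 7 lower. On the lower side stood the crosslinker Lox, given above, and Mfap4, a microfibril-associated protein of elastin assembly, at 1636, 658 and 527 CPM at E17.5 and 81.3, 180.2 and 392 CPM after birth. The log2 fold change of Mfap4 was -2.23 (adjusted p = 0.000512, SE 0.31), and -1.56 without E17.5 replicate 1, the library with the high fetal value. On the higher side Loxl2, another crosslinker of the same family, stood at 79.8, 111 and 134 CPM and then 296, 429.8 and 548 CPM, level, a log2 fold change of 1.94 (adjusted p = 0.000142, SE 0.23). Lox and Loxl2 thus moved in opposite directions across birth. Mfap5 and Fbln2, microfibril and fibulin genes, rose by 2.12 and 2.20. Elastin itself (Eln), singled out after its values were seen, did not stay on one side. Its fetal libraries held 3750.1, 5172 and 3080.2 CPM, and its means were 533 ± 124 CPM at P3, 1569 ± 344 at P7 and 4633 ± 389.8 at P10. The mean over the 3 postnatal stages passed as lower, with a log2 fold change of -1.35 (adjusted p = 0.000352, SE 0.18), while the P10 libraries overlapped the fetal ones. A contrast of all postnatal stages therefore averages over a large move in this gene.

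Collagen and basement membrane genes were more often lower. Of 26 collagen genes, 14 passed as lower and 8 as higher, with 9 and 6 separated. Col25a1 and Col13a1, transmembrane collagens, had log2 fold changes of -3.22 and -2.98, and -2.51 and -2.07 without E17.5 replicate 1. Col12a1, a fibril-associated collagen, rose from 25.6, 21.02 and 20.8 CPM to 70.1, 97.97 and 126 CPM with a level course and a log2 fold change of 2.05 (adjusted p = 4.88e-05, SE 0.20). Of 15 laminin and nidogen genes, 8 passed as lower and 1, the perlecan gene Hspg2, as higher (0.67). Lamc1, the common laminin gamma chain, was at 657, 932 and 725 CPM at E17.5 and 311, 321 and 411 CPM after birth, a log2 fold change of -1.20 (adjusted p = 3e-05, SE 0.11). Lama4 and Nid2 had -1.04 and -1.37.

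Matricellular genes were the matrix list with the most separated rises by count, 7 of 14 tested against 6 of 26 collagen genes (7.43% over all tested genes). That lead by count was not stable: both lists had 7 without E17.5 replicate 1 or without replicate 2, and collagen genes had 9 without P10 replicate 1. The lists differ in size, so these counts do not rank them by share. Of 14 matricellular genes tested, 7 passed as higher and all 7 were separated, and 4 passed as lower, 2 of them separated. Their median log2 fold change was 0.999. The lower count was 2 without any one of 6 postnatal libraries (P3 and P7 replicate 2, P10 replicates 2 and 3, P3 replicate 1 and P7 replicate 3). Tnxb, tenascin-X, was at 0.272, 0.0973 and 0.104 CPM at E17.5 and at 4.899, 24.1 and 50.6 CPM after birth, a log2 fold change of 6.76 (adjusted p = 2.42e-06, SE 0.43). Its means widened from 6.09 ± 1.09 at P3 to 44.2 ± 10.002 at P10. Wisp1, a CCN family protein, had 1.78, and Smoc2 fell, at -1.91. Of 10 small leucine-rich proteoglycans, 3 passed as higher (Aspn, Ecm2 and Prelp, at 4.98, 3.39 and 1.20) and 4 as lower. The lower count was 0, 1 and 2 without E17.5 replicates 1, 2 and 3, and 1 or 2 without any postnatal library but P10 replicates 1 and 3. Dcn, decorin, was among the lower ones at -1.48, a call lost without any one fetal library (adjusted p from 0.0517 to 0.082). Of 23 matrix proteases and inhibitors, 6 passed as higher and 4 as lower (7 without E17.5 replicate 1). Mmp2, gelatinase A, fell from 566, 784 and 709 CPM to 244, 267 and 340.3 CPM, level after birth, at -1.35 (adjusted p = 1.93e-05, SE 0.12).

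**Figure D4:**
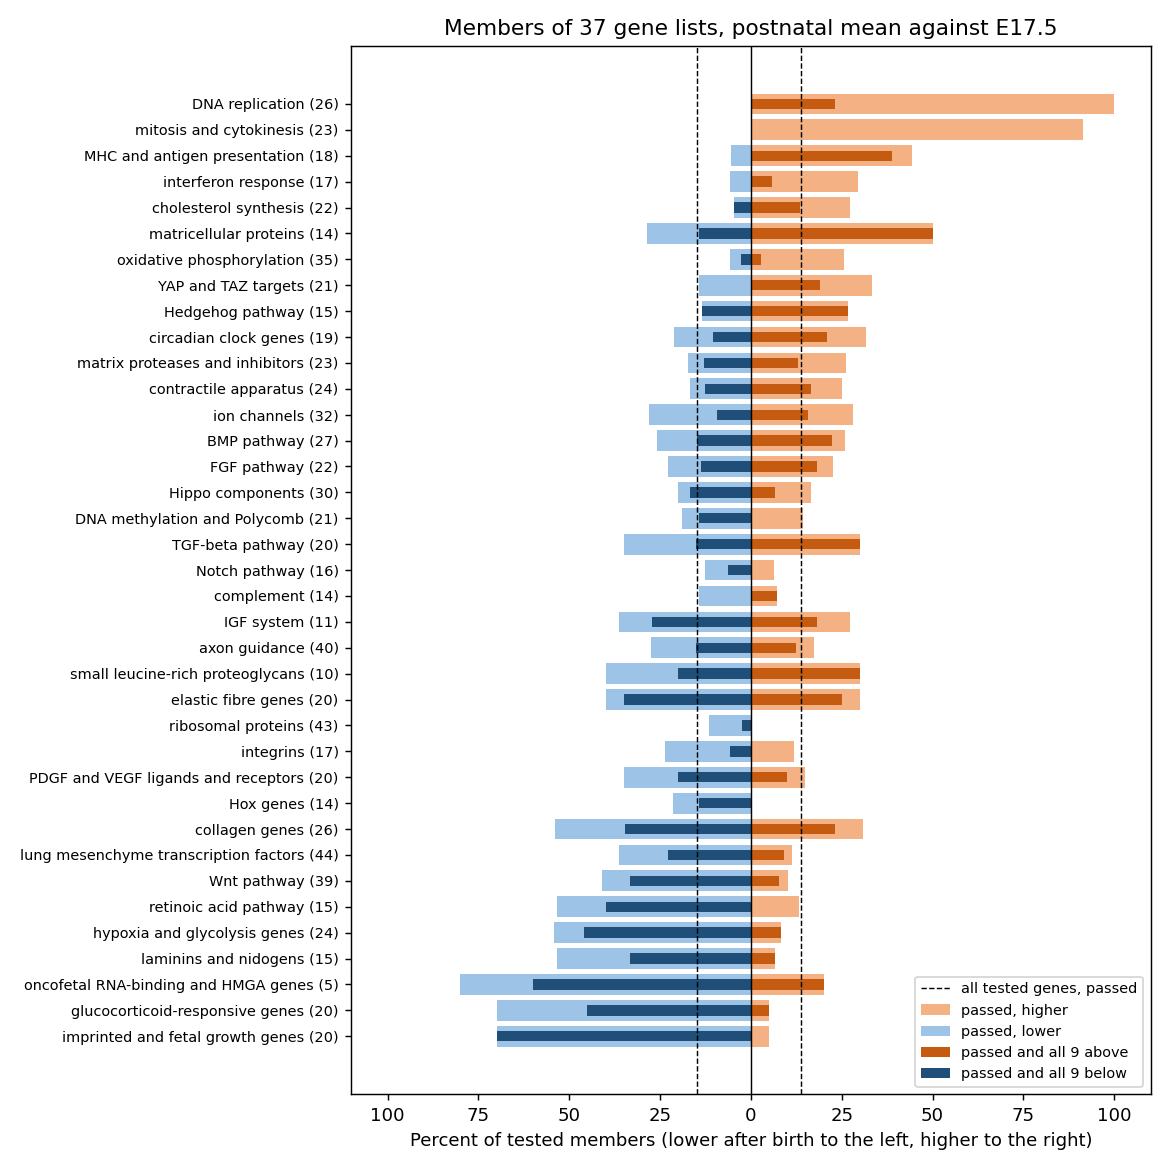
For each of 37 gene lists (tested members in brackets), pale bars give the percent of members that passed as higher (right) or lower (left) after birth, and dark bars those that were also separated; dashed lines mark 13.9% and 14.9%, the shares over all tested genes. DNA replication and mitosis genes have long pale bars and short or no dark ones, while imprinted genes have equal pale and dark bars on the lower side.

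Contractile genes passed in both directions. Of 24 tested, 6 passed as higher and 4 as lower, with a median log2 fold change of 0.20. Cald1, caldesmon, rose from 686, 814 and 1011 CPM to 1319, 1757 and 1998 CPM, a log2 fold change of 1.01 (adjusted p = 0.000303, SE 0.13), and Actn1, alpha-actinin, had 0.99. The intermediate filament gene Des had 1.11. With P10 left out of the postnatal mean, 11 of the 24 passed as higher. Of 17 integrin genes 2 passed as higher and 4 as lower (35.3%, against 28.8% of all tested genes), and Itgb5 alone was separated (-0.68). The higher count was 0 or 1 without any one library but P3 replicate 2.

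Hippo pathway genes moved in both directions. Of 30 components, 5 passed as higher and 6 as lower (36.7% in either direction, against 28.8% of all tested genes), and the median log2 fold change was -0.02. Limd1, an inhibitor of LATS kinases, was at 46.8, 31.2 and 29.5 CPM at E17.5 and at 11.01, 13.01 and 17.1 CPM after birth, a log2 fold change of -1.40 (adjusted p = 2.65e-05, SE 0.13). Amotl1 and Frmd6, upstream scaffold proteins, had 1.13 and 1.11, and the atypical cadherin gene Fat4 had -0.92. Tead3 was lower by a small step (-0.42), a call lost without E17.5 replicate 2 (adjusted p = 0.143) or replicate 3 (0.0824). Without E17.5 replicate 1, or without replicate 2, only 2 components passed as higher. Of 21 YAP and TAZ target genes, 7 passed as higher and 3 as lower, with a median of 0.16, and 4 were separated, all higher: Tgfb2, Myof, Ctgf and Crim1. Myof, the membrane repair protein myoferlin, stood at 2.51, 1.17 and 1.56 CPM and then 7.61, 10.4 and 13.1 CPM with stage means that spanned 0.03 log2 units, a log2 fold change of 2.49 (adjusted p = 0.000116, SE 0.28). Ctgf, connective tissue growth factor, stood at 41.7, 82.9 and 77.1 CPM and then 107, 211 and 381 CPM, at 1.79 (adjusted p = 0.00718, SE 0.39).

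In the transforming growth factor beta (TGF-beta) pathway the ligand genes Tgfb2 and Tgfb3 rose. Tgfb2 was at 17.3, 12.7 and 18.6 CPM at E17.5 and at 77.1, 83.6 and 149 CPM after birth, a log2 fold change of 2.53 (adjusted p = 1.8e-05, SE 0.21), with a level course. Tgfb3 stood at 23.99, 32.4 and 36.1 CPM and then 60.6, 117 and 156 CPM, widening, at 1.82 (adjusted p = 1.22e-05, SE 0.14). The coreceptor genes went opposite ways: Eng, endoglin, had 1.32 and Tgfbr3, betaglycan, -1.26. Of 20 tested, 6 passed as higher, all separated, and 7 as lower, 3 of them separated; without E17.5 replicate 2 the lower count was 3.

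Among bone morphogenetic protein (BMP) genes, 7 of 27 passed in each direction, and 4 as lower without E17.5 replicate 2. The antagonist gene Chrd, chordin, fell at -2.01, and the target gene Id4 rose at 1.52. The antagonist gene Grem1, gremlin 1, had 2.44 from fetal values of 0.204, 0.195 and 0.313 CPM, and did not pass with limma-voom (adjusted p = 0.117). In the Hedgehog pathway, of 15 tested, 4 passed as higher and 2 as lower, and all 6 were separated. Without E17.5 replicate 2 only 2 passed as higher, and without replicate 1 the lower count was 4. Hhip binds Hedgehog ligands and was in the marker lists of both crest myofibroblasts and airway smooth muscle. It was at 483, 751 and 593 CPM at E17.5 and 93.03, 104 and 129.8 CPM after birth, a log2 fold change of -2.52 (adjusted p = 4.95e-07, SE 0.12) with a level course. The coreceptor gene Boc had -1.13 and the transcription factor gene Gli3 0.69.

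Wnt pathway genes were mostly lower where they passed. Of 39 tested, 16 passed as lower, 13 of them separated, and 4 as higher, with a median log2 fold change of -0.37. Both agonists and antagonists of Wnt signalling were among them. The agonist Rspo1 stood at 10.3, 1.46 and 4.17 CPM and then 0.0594, 0.199 and 0.473 CPM. The antagonist Sfrp2 fell from 21.5, 42.3 and 44.1 CPM to 0.813, 2.52 and 8.798 CPM, with a log2 fold change of -3.75 (adjusted p = 1.42e-06, SE 0.22). Notum, an enzyme that inactivates Wnt ligands, had -2.74, and both widened. The decoy receptor Frzb had -2.63, a call lost without E17.5 replicate 2 (adjusted p = 0.0512). The ligand gene Wnt4 went the other way, from 0.272, 0.487 and 0.156 CPM to 2.16, 3.73 and 6.12 CPM, a log2 fold change of 3.64 (adjusted p = 5.75e-05, SE 0.37).

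In FGF signalling 5 of 22 genes passed in each direction, and 3 in each without E17.5 replicate 1. The ligand gene Fgf10, which drives fetal lung branching, fell at -2.34 (-1.30 without E17.5 replicate 1), and Fgf9 rose at 3.39, though not with limma-voom (adjusted p = 0.0565). The target genes Etv4 and Etv5 rose, at 3.34 and 1.62. Of 15 retinoic acid genes, 8 passed as lower (5 without E17.5 replicate 2) and 2 as higher (1 without any one fetal library or P7 replicate 3). Aldh1a1, a retinoic acid synthase, fell from 45.6, 82.2 and 63.8 CPM to 6.41, 9.91 and 33.6 CPM, at -2.29 (adjusted p = 9.84e-06, SE 0.17), and the receptor genes Rara and Rxrb fell at -0.81 and -0.59. Of 20 platelet-derived and vascular growth factor genes, 3 passed as higher and 7 as lower (4 without E17.5 replicate 1). The ligand gene Pdgfc fell at -1.62, and Hgf, hepatocyte growth factor, rose at 2.21. Of 16 Notch genes 3 passed (18.8%, against 28.8% of all tested genes), with Notch3 separated at -1.19; the 1 higher call was lost without E17.5 replicate 2, P7 replicate 2 or 3, or P10 replicate 3.

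The guidance genes included Ntn1 and a receptor for it. Of 40 tested, 7 passed as higher and 11 as lower. Unc5b, a netrin receptor, rose along with the ligand Ntn1, from 4.69, 6.33 and 4.22 CPM to 31.05, 35.5 and 47.9 CPM, level after birth, a log2 fold change of 2.90 (adjusted p = 1.36e-06, SE 0.17). The ligand gene Slit2 fell at -2.51 (-1.67 without E17.5 replicate 1), and the receptor genes Epha3 and Plxna2 at -1.75 and -1.73. Of 44 transcription factors of lung mesenchyme, 5 passed as higher and 16 as lower. Twist1, a mesenchymal basic helix-loop-helix factor, rose from 0.06796, 0.195 and 1.46 CPM to 7.12, 12.9 and 25.2 CPM, a log2 fold change of 4.27 (adjusted p = 0.000983, SE 0.66). Its fetal library 3 was above the other 2. Foxp1 rose at 1.47, while Snai1, Klf15 and Sox6 fell at -1.67, -2.57 and -3.24. Of 14 Hox genes 3 passed, all lower (21.4%, against 28.8% of all tested genes), with Hoxa6 (-0.94) and Hoxb4 (-0.63) separated. Without E17.5 replicate 3, P3 replicate 3 or P10 replicate 1, 2 Hox genes passed as higher.

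Of 32 ion channel genes, 9 passed in each direction, and 5 as lower without E17.5 replicate 2. Cacna1g, a T-type calcium channel, fell from 97.9, 156 and 121 CPM to 17.1, 20.8 and 30.2 CPM, level after birth, at -2.51 (adjusted p = 5.99e-07, SE 0.12). The ATP-gated channel gene P2rx7 rose at 2.55. Of 19 clock genes, 6 passed as higher and 4 as lower (2 without E17.5 replicate 1 or 2). Nr1d2, a repressor of the clock, rose at 1.64 and Per2 fell at -1.84. The hour of collection is not given in the labels, and its part in these clock values was not tested. Of 22 cholesterol synthesis genes, 6 passed as higher and 1 as lower (31.8%, near the 28.8% of all tested genes). The higher count was 3 without E17.5 replicate 1 and 2 without replicate 2. Of 21 DNA methylation and Polycomb genes 3 passed as higher and 4 as lower, a share near the 28.8% of all tested genes, and 2 as lower without E17.5 replicate 2 or 3. Of 43 ribosomal protein genes 5 passed, all lower (11.6%, against 28.8% of all tested genes). That count was 3 without E17.5 replicate 1, 8 without P3 replicate 3, 15 without P10 replicate 1 and 25 with P3 left out of the postnatal mean.

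Antigen presentation genes that passed were nearly all higher, as were summed immune markers. Of 18 tested, 8 passed as higher, 7 of them separated, and 1 as lower, a call lost without E17.5 replicate 2, with a median log2 fold change of 0.74. H2-K1, a class I heavy chain, was at 16.7, 16.8 and 12.8 CPM at E17.5 and at 26.2, 42.1 and 46.5 CPM after birth, a log2 fold change of 1.36 (adjusted p = 0.000301, SE 0.18); reads of H2 genes can be shared among close copies. Cd74, the class II invariant chain, stood at 0.272, 0.0973 and 0.522 CPM and then 1.58, 3.27 and 7.57 CPM. H2-Aa, a class II chain, was listed at 0 in all 3 fetal libraries and stood at 0.199, 0.534 and 1.42 CPM after birth. Immune markers summed to 11.58 to 14.41 CPM at E17.5 and 17.89 to 26.85 after birth, with 6 of the 13 listed markers under 1 CPM in every library. Lyz2 was the largest member in every library, at 6.184, 6.131 and 5.111 CPM at E17.5 and 9.024 to 16.299 after birth. Without Lyz2 the sums of the groups overlapped. The part of immune cells in the rise of antigen presentation genes was not tested. Of 17 interferon response genes 5 passed as higher and 1 as lower (35.3%, against 28.8% of all tested genes). The higher count was 2 without E17.5 replicate 2 and without replicate 3. The lower call was lost without E17.5 replicate 1 or 2, and 2 were lower without replicate 3.

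Summed markers moved with the contrast in 5 of 14 cell type lists, in the sense that the summed CPM of the groups did not overlap. The 14 lists include that of the sorted cells. Without E17.5 replicate 1 the count was 8, with secondary crest myofibroblast, pericyte and airway smooth muscle sums then lower after birth. In the airway epithelial, immune, mesothelial and chondrocyte lists the groups overlapped without Tppp3, Lyz2, Krt19 and Col9a2, in that order. These members were chosen after their values were seen. Airway epithelial markers summed to 16.85 to 29.99 CPM at E17.5 and to 72.79 to 271.9 after birth, with 5 of 11 markers under 1 CPM throughout. Without Tppp3 the sums were 4.574 to 14.71 CPM and then 10.15 to 151.7, with overlap. Foxj1, the ciliated cell factor, stayed under 1 CPM in every library. Scgb1a1, of club cells, stood at 2.92, 0.487 and 1.83 CPM and then 7.72, 46.02 and 110.5 CPM; it did not pass with limma-voom (adjusted p = 0.169). Tppp3, of ciliated cells and some stromal cells, stood at 8.83, 13.7 and 15.3 CPM and then 62.6, 89.4 and 128 CPM, a log2 fold change of 2.86 (adjusted p = 3e-05, SE 0.26). Immune markers are given above.

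**Figure D5:**
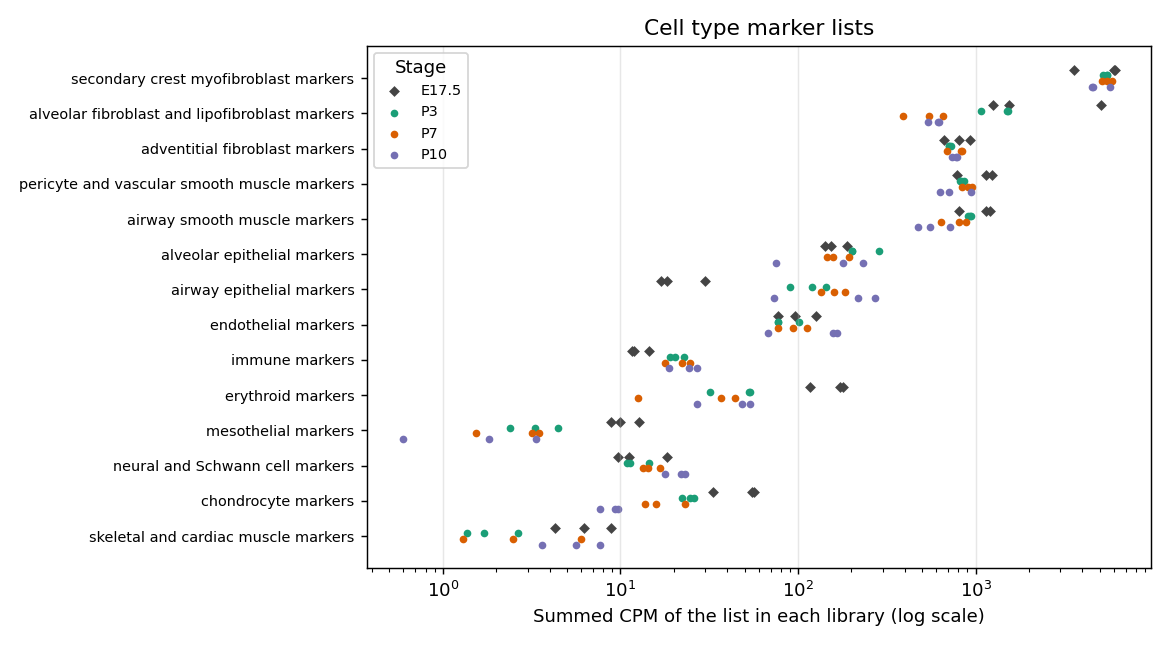
Each point is 1 library, placed at the summed CPM (log scale) of a cell type marker list, with diamonds for E17.5 and circles coloured by postnatal stage. Airway epithelial and immune sums lie higher and erythroid, mesothelial and chondrocyte sums lower in every postnatal library than at E17.5, and 1 fetal diamond, at 5054 CPM, stands apart in the alveolar fibroblast row.

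The other 3 lists were lower after birth. Erythroid markers summed to 117.0 to 180.2 CPM at E17.5 and to 12.51 to 53.9 after birth, and 4 of 5 tested globin and red cell genes passed as lower, led by Hbb-bs at -2.32. Adult globin genes have close copies among which reads can be shared. Mesothelial markers summed to 8.834 to 12.73 CPM and then to 0.5937 to 4.458, with 4 of the 6 listed markers under 1 CPM in every library. Krt19, at -2.11, made up most of the fetal sums, with 7.951, 8.467 and 11.475 CPM. Without Krt19 the mesothelial sums of the groups overlapped. Chondrocyte markers summed to 33.09 to 56.74 CPM and then to 7.676 to 25.85. That difference was carried by Col9a2, named above among the widest gaps. Without it the sums were 10.94 to 14.21 CPM at E17.5 and 7.066 to 23.53 after birth, with overlap, and Col2a1, the main collagen of cartilage, had fetal values of 2.922, 3.114 and 3.703 CPM and P3 values of 17.118, 16.349 and 13.173 CPM. The part of other cells in the fall of Col9a2 was not tested. The chondrocyte factor gene Sox9 had -1.08, a call lost without E17.5 replicate 2 (adjusted p = 0.107).

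Markers of the sorted cells were present at every stage. Secondary crest myofibroblast markers summed to 3604 to 6089 CPM at E17.5 and 4545 to 5886 after birth. The overlap rested on E17.5 replicate 1, at 3604, since the other 2 fetal sums, 5993 and 6089, lay above all 9 postnatal ones. Within that list 5 genes passed as higher and 7 as lower of 18 tested, so the sum hides opposite moves. Mustn1, a muscle and connective tissue protein, rose from 16.04, 26.4 and 16.4 CPM to 53.4, 139 and 246 CPM, at 2.80 (adjusted p = 1.88e-05, SE 0.24), and P2ry14, a receptor for UDP sugars, rose at 2.17. Enpp2, which makes lysophosphatidic acid, fell from 345, 664 and 324 CPM to 52.01, 68.8 and 105 CPM, at -2.69 (adjusted p = 9.84e-06, SE 0.21). Alveolar fibroblast and lipofibroblast markers were lower without exception among those that passed, 14 of 19 with a median log2 fold change of -2.23. Only 5 of the 14 were separated, and 1 of those was level. The list summed to 1504, 1523 and 1066 CPM at P3, where fetal replicates 2 and 3 held 1533 and 1254. At P7 and P10 the sums were 387.7 to 655.4 CPM. Without E17.5 replicate 1, 9 of 19 passed as lower. Plin2, which coats lipid droplets, had -2.31 with that library and -1.10 without it. Nebl had -3.96 and -3.30. Of 15 pericyte and vascular smooth muscle markers 4 passed as lower (7 without E17.5 replicate 3) and 1 as higher (2 without E17.5 replicate 2), with Cspg4 as given above.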

How the data were processed

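Bulk RNA was measured in 12 libraries, 3 for each of 4 stages. The deposited table holds estimated counts per gene, given as whole numbers; that the authors scaled them was inferred from their spacing. Values of short genes are raised by what looks like a length scaling, so they are not numbers of reads. The genome build was GRCm38, per the submitters' processing notes, and an aligner, counter or annotation is not given in the sources used here. Per the labels' protocols, sorted cells were lysed for total RNA, which went into a stranded low-input kit, though the molecule label names polyadenylated RNA.

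CPM used TMM library sizes. Stages were compared by the quasi-likelihood test of edgeR 4.0.16 (R 4.3.3, with limma 3.58.1) after low counts were filtered by stage. Fitting was robust, and p-values were adjusted by Benjamini-Hochberg over 16827 genes, with a threshold of 0.05. Every adjusted p is from it unless another tool is named. The common dispersion was 0.145 and the median prior degrees of freedom 2.61. Totals of 13328623 to 18740591 per library limit low genes most. Structural small RNAs are part of those totals, up to 70.06% in E17.5 replicate 2, which leaves fewer counts for other genes. The script was tested on simulated data. GENCODE mouse release M21 gave a position for 25847 symbols (92.3%).

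The members, the 51 lists (37 pathway, 14 cell type) and the rules were chosen with earlier results of these data known. Unless stated otherwise, 195 genes were named by rule, without predicted models. These were, per direction, the 12 widest gaps and the 8 largest level changes that reached 10 CPM, up to 5 separated members of each list by size, the on and off genes and both reporter genes. Of the genes so named, 2 are not reported here. Alternatives were other scalings and filters, DESeq2 1.42.0, limma-voom, a minimum fold of 1.5, 2 pooled groups, a replicate block, each library and each postnatal stage left out, and other limits for the classes.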

Additional observations from a re-analysis of the deposited data

Results flagged for a closer look

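For 32 genes with wide gaps or large level changes, the 9 postnatal libraries were examined for a single library far from the rest, and 4 genes had one. Chance alone gives about 1 in 20 for each gene only where all 9 values come from 1 normal distribution. The 9 libraries span 3 stages, so that rate does not hold for genes that moved after birth, such as Zbtb16. Ackr3 reached 33.84 CPM in P10 replicate 1, where the next highest library stood at 22.26 CPM. Lamc3 reached 5.581 CPM in the same library, next to 3.683 CPM. Cyp1b1 reached 0.8866 CPM in P3 replicate 1, next to 0.5635 CPM, and Zbtb16 reached 3.069 CPM in that library, next to 1.621 CPM. All 4 genes kept every postnatal library on the same side of the fetal ones. Their calls held in each of the 25 alternative settings.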

How the results depend on the processing

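Of the 195 named genes 153 kept their side of the threshold in every setting that gave them a value (25 for 150 of the genes, 23 or 24 for the others), 42 changed in at least 1, and none reversed. A minimum fold of 1.5 left 715 higher and 735 lower genes passed, 575 and 623 of them separated, 218 and 312 of them level, and 216 list members. Requiring 10 CPM in a stage left 845 lower genes separated, 836 of them passed and 594 level. Requiring a gap of 1 log2 unit left 116 higher and 143 lower genes. Without P10 in the postnatal mean 2381 higher and 2271 lower genes were separated, 2106 higher genes also passed, and 1871 and 1693 were level. Without P3 1254 and 1384 were level, 11 were on and 6 off. Without P7 1657 lower genes passed. Genes on after birth numbered 5 without structural small RNAs, 1 with limma-voom, 8 at limits of 0.5 and 2 CPM and 6 at limits of 2 and 10 CPM. Separated genes that also passed among the postnatal stages, 403 here, were 50 without P3 and 2 without P10, where fewer stages were compared.

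Leaving out 1 library at a time gave 2 to 5 genes on and 2 to 5 off, 1669 to 2520 lower genes passed (the lowest without E17.5 replicate 2), 1369 to 2092 higher genes separated (the highest without E17.5 replicate 3) and 129 to 614 that passed among the postnatal stages. Marker lists whose sums did not overlap, 5 here, numbered 5 to 8 with 1 library left out (8 without E17.5 replicate 1) and 3 without Tppp3 and Col9a2, alternatives chosen after seeing the data. The cause was not tested. Of the 2577 genes, the settings shared between 46.5% (minimum fold of 1.5) and 99.3% (DESeq2).

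The labels number replicates 1 to 3 in each stage, and a replicate block gave 2091 higher and 2157 lower genes, 1184 and 1262 of them separated, and 266 that passed among the postnatal stages. Deviations of same-numbered libraries correlated between -0.242 and 0.166, with 4 of 18 pairs over 0.1, so the numbers were not taken to pair the samples. The depth limits genes near 1 CPM most.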
